A study of Mus musculus with 6 samples.

Results

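Genes of the mature adipocyte and of thermogenic fat were followed in eosinophils sorted from subcut AT. They are Adipoq, Lep, Retn and Cfd, which encode secreted adipokines, Plin1, Plin4, Cidec and Cidea, which encode proteins of the lipid droplet, Ucp1, which encodes the uncoupling protein of brown and beige fat, and Car3, which encodes a carbonic anhydrase. These 10 genes were chosen by name, and the probe sets whose gene symbol was exactly 1 of them were taken from the table of 45037 probe sets, which read 17097 genes under a single symbol. For 7 of the 10 genes there were 10 such probe sets, 4 for Car3 and 1 each for Adipoq, Plin4, Cidea, Lep, Retn and Ucp1. Plin1, Cidec and Cfd were paired with no probe set in the annotation used here, so no value is given for them.

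The arrays hold RNA of 3 WT and 3 Klf3-/- male mice, 1 array for each mouse. All were FVB/NJ mice of 12 weeks from matched litters, kept at 22 °C on chow and given no treatment. The Klf3-/- mice carry the disruption of Klf3, which encodes a transcriptional repressor, in every cell of the body, so the adipocytes around the sorted cells carried it too. Inguinal subcut AT was digested with collagenase, the SVF was separated from the floating adipocytes, and live cells with high side scatter that stained for CD45, CD11b, Siglec-F and the product of Adgre1 were collected. The comparison asks how these adipocyte and thermogenic genes read in the sorted cells of each genotype. All levels below are log2 values quantile-normalised between the 6 arrays unless deposited intensities are named, and all differences are Klf3-/- minus WT.

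The members belong to the last stage of fat cell differentiation. Adiponectin and leptin are hormones released by adipocytes and are standard markers of these cells, while resistin is made by mouse adipocytes and has relatives that are made by macrophages. Perilipins coat the lipid droplet and control access of lipases to it, and the CIDE proteins enlarge droplets. UCP1 lets protons back across the inner mitochondrial membrane so that energy leaves as heat, and it marks activated beige and brown adipocytes. Carbonic anhydrase 3 is abundant in adipocytes and in skeletal muscle. Eosinophils reside in the SVF and act on adipose tissue through secreted factors.

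Promoters are shown for 3 genes because the missing factor binds DNA. KLF3 recognises sites that contain CACCC, and AGGTCA is the repeated unit of the element bound by PPARG, the main regulator of adipocyte genes. The RefSeq table of build GRCm38.p6 held 9 promoters of 8 members, with none listed there for Car3 and Cidea. The 250 bases before the start were searched on both strands for both sets of letters, which do not overlap each other, and matches are in capitals. Adipoq was chosen for the widest spread between arrays, Plin4 as a member above background and Ucp1 as the thermogenic marker. They lie at chr16:23146286-23146535 on the plus strand, chr17:56109783-56110032 on the minus strand and chr8:83290098-83290347 on the plus strand, each printed 5′ to 3′ in the direction of the gene.
Adipoq: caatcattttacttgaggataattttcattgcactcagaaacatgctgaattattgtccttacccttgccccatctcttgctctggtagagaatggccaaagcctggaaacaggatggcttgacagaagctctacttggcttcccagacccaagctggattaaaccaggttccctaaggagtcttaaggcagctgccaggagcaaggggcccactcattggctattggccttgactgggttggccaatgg
Plin4: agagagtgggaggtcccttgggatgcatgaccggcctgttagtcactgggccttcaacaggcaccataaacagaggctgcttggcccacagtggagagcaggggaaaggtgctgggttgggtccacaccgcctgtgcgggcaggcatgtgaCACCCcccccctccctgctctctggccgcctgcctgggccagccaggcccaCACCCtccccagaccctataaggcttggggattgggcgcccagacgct
Ucp1: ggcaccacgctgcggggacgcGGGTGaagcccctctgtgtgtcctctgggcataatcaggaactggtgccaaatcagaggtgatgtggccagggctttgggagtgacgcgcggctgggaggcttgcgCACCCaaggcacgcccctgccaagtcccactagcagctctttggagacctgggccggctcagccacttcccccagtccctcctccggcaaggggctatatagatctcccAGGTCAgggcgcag
CACCC was found in 5 of the 9 promoters (Cfd, Lep, Plin1, Plin4 and Ucp1) and in 52% of all 32851 promoters of the table. Taking the base before the start as −1, its first base lay at −99 and −48 in Plin4 and at −229 and −123 in Ucp1. AGGTCA was found in 1 of the 9, at −14 in Ucp1, and in 14% of all promoters. Neither set of letters was in the Adipoq window. These counts describe letters and not binding.

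Array medians of the deposited intensities ranged from 30.3 to 58.7, and pairs of normalised arrays correlated at 0.93 to 0.96. With 3 arrays in each genotype precision is limited throughout. Of the 6 probe sets for Klf3, 5 read higher and 1 lower on every Klf3-/- array than on every WT array. The brightest of them gave 8.79, 8.06 and 8.48 in WT 1 to 3 and 8.89, 9.29 and 9.22 in Klf3-/- 1 to 3. The lower one gave 8.73, 8.13 and 8.92 in WT and 7.33, 7.38 and 8.04 in Klf3-/-. Their positions relative to the disruption are not stated in the sources read, and the genotype labels were thus not checked by them. The sort label was checked against 13 eosinophil markers, of which 8 had a probe set. Only Prg3, a granule protein gene, lay above the background level defined next, while the other 7 lay below it, among them Siglecf (WT 4.58 ± 0.21, Klf3-/- 4.15 ± 0.11, SD, n = 3 each). Epx, Prg2, Il5ra and Ccr3, named here as defining markers, were also below. Prg3 gave 5.91, 4.64 and 6.14 in WT and 5.50, 4.67 and 4.35 in Klf3-/-, and its mean of 5.20 was just above the level of 5.10. It passed the level of the single array only on WT 1, WT 3 and Klf3-/- 1. C1qa, a macrophage gene, gave 12.43, 11.59 and 12.13 in WT and 12.06, 11.82 and 12.70 in Klf3-/-. The sorted samples are called eosinophils here as the labels do.

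Only a few members stood above background. As the table has no detection calls, the background level was the 95th percentile over the 44 olfactory receptor probe sets of the table, 5.10 on the log2 scale or 34.2 on the linear scale. Of the 10 member probe sets 4 had a mean above it, 1 each for Plin4 (5.58) and Retn (5.44) and 2 for Car3 (7.88 and 7.34). Of all probe sets 55.3% did. Ucp1 (4.72), Adipoq (4.75), Cidea (4.37), Lep (3.92) and the other 2 Car3 probe sets (3.84 and 3.69) lay below. The nearest probe set outside the level was that of Adipoq, 0.35 below, and the nearest inside was that of Retn. The 2 brighter Car3 probe sets exceeded the level of their own array on all 6 arrays, Plin4 and Retn on 5 and Adipoq on 1. Cidea, Lep, Ucp1 and the dimmer Car3 probe sets exceeded it on 0. These levels are against background only and do not rank the genes, since probe sets differ in response. In RNA of a sorted population, fewer cells of a type and less RNA per cell cannot be told apart.

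**Figure D1:**
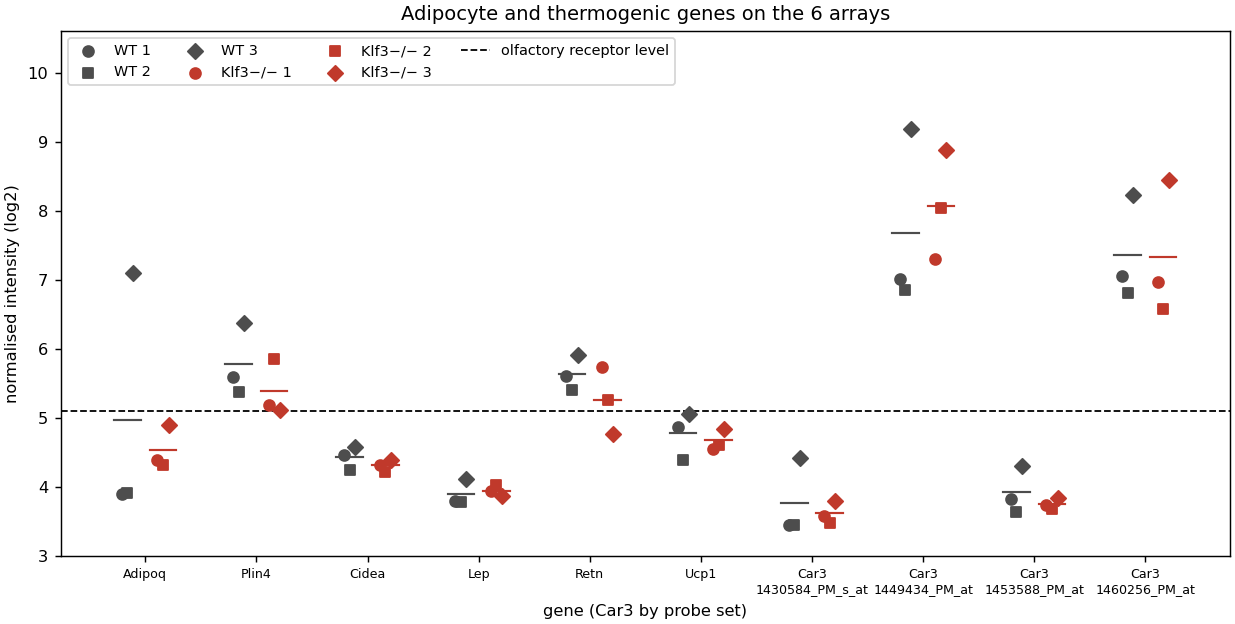
Normalised log2 intensity (y axis) of the 10 probe sets of the 7 measured genes (x axis) on each WT (grey) and Klf3-/- (red) array, with marker shape giving the replicate number and short bars the mean of each genotype. The dashed line marks background (5.10). Adipoq on WT 3 stands at 7.10 and the other 5 arrays between 3.89 and 4.90, and both genotypes overlap at every probe set.

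Adipoq, which encodes adiponectin, read high on 1 array and below background on the rest. It gave 3.89, 3.91 and 7.10 in WT 1 to 3, and 4.38, 4.31 and 4.90 in Klf3-/- 1 to 3. WT 3 alone was above its own background level, which was 5.31. The deposited intensities of 13.1, 19.7 and 87.3 in WT and 22.0, 26.1 and 25.3 in Klf3-/- set the same array apart, although WT 3 had the lowest array median. The WT mean was 4.97 ± 1.85 and the Klf3-/- mean 4.53 ± 0.32 (SD, n = 3 each). The difference of −0.43 had a 95% interval from −2.38 to 1.51 and an adjusted p of 0.973 from limma. Without WT 3 it was 0.64, with an adjusted p of 0.849 from limma, so its direction rested on that 1 array.

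Lep, which encodes leptin, stayed below background everywhere. It gave 3.80, 3.78 and 4.11 in WT 1 to 3 and 3.94, 4.02 and 3.86 in Klf3-/- 1 to 3. The genotypes overlapped, and all arrays lay within a 1.25-fold range. The difference of these background readings was 0.04, with a 95% interval from −0.39 to 0.47 (limma, adjusted p = 0.99).

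Retn, which encodes resistin, lay near the background level. It gave 5.61, 5.40 and 5.91 in WT 1 to 3 and 5.74, 5.25 and 4.77 in Klf3-/- 1 to 3. WT 3 was the highest and Klf3-/- 3 the lowest, and Klf3-/- 1 lay within the WT values. The difference was −0.39 (95% interval −1.06 to 0.29, limma adjusted p = 0.943). That interval runs from 0.48 to 1.22 times the WT level, so it holds both a clear fall and a small rise. Leaving out 1 array moved the difference between −0.62 (without Klf3-/- 1) and −0.15 (without Klf3-/- 3). The deposited intensities were 41.9, 55.5 and 40.9 in WT and 58.6, 51.3 and 23.0 in Klf3-/-.

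Among the lipid droplet genes Plin4, the perilipin of nascent droplets, lay above background. It gave 5.59, 5.37 and 6.37 in WT 1 to 3 and 5.19, 5.85 and 5.11 in Klf3-/- 1 to 3. WT 3 was again the highest, 1.43-fold over Klf3-/- 2, and the genotypes overlapped. The difference was −0.39, with a 95% interval from −1.16 to 0.38 (limma, adjusted p = 0.952), and leaving out 1 array moved it between −0.61 (without Klf3-/- 2) and −0.10 (without WT 3). The deposited intensities of Plin4 were 41.6, 54.4 and 54.3 in WT and 39.7, 82.1 and 29 in Klf3-/-, so Klf3-/- 2 was the highest array there. Cidea, a droplet protein that is high in brown and beige fat, stayed below background on all 6 arrays. It gave 4.46, 4.24 and 4.58 in WT and 4.32, 4.21 and 4.39 in Klf3-/-, a spread of 1.30-fold over all arrays. The difference of these background readings was −0.12 (95% interval −0.55 to 0.31, limma adjusted p = 0.969).

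Ucp1, the thermogenic gene of the group, did not exceed background on any array of either genotype. It gave 4.87, 4.39 and 5.06 in WT 1 to 3 and 4.55, 4.61 and 4.84 in Klf3-/- 1 to 3. The own background levels of these arrays were 5.25, 4.96 and 5.31 in WT and 4.81, 5.16 and 5.20 in Klf3-/-, and every array read short of its own, WT 3 and Klf3-/- 1 by the narrowest gaps. The WT mean was 4.78 ± 0.35 and the Klf3-/- mean 4.67 ± 0.15 (SD, n = 3 each). The difference of −0.11 had a 95% interval from −0.65 to 0.43 and a limma adjusted p of 0.976. The deposited intensities were 25.5, 27.2 and 24.5 in WT and 24.8, 32.2 and 24.3 in Klf3-/-.

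Car3 read above background on all 6 arrays by both brighter probe sets, and it varied most between arrays after Adipoq. Its brightest probe set (1449434_PM_at) gave 7.01, 6.85 and 9.18 in WT 1 to 3 and 7.30, 8.04 and 8.88 in Klf3-/- 1 to 3. The span from lowest to highest array was 5.04-fold, and WT 3 and Klf3-/- 3 were the high arrays of their genotypes. The difference was 0.39, with a 95% interval from −1.19 to 1.98 (limma, adjusted p = 0.971). It was −0.02 without WT 2 and 1.16 without WT 3. The deposited intensities of this probe set were 111, 162 and 355 in WT and 175, 411 and 340 in Klf3-/-, so Klf3-/- 2 was the highest array there. The other bright probe set (1460256_PM_at) gave 7.05, 6.81 and 8.22 in WT and 6.96, 6.58 and 8.45 in Klf3-/-, again with replicate 3 of both genotypes high. Its difference was −0.03 (95% interval −1.35 to 1.28, limma adjusted p = 0.997), so the fitted differences of the pair had opposite signs, each well within its interval. The dimmer pair is paired in the platform annotation with an expressed sequence tag, while the brighter pair is paired with the reference mRNA. One of the dimmer pair (1430584_PM_s_at) gave 3.45, 3.44 and 4.41 in WT and 3.57, 3.48 and 3.79 in Klf3-/-. The other (1453588_PM_at) gave 3.82, 3.64 and 4.30 in WT and 3.74, 3.68 and 3.84 in Klf3-/-. Both lay below background on every array, with WT 3 the highest.

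No member separated the genotypes. At an adjusted p under 0.05 limma called 0 of the 10 member probe sets, beside 0% of all probe sets. At an unadjusted p under 0.05 it gave 0 of 10, beside 3.1% of all probe sets higher and 2.39% lower. In 0 of 10 probe sets did all Klf3-/- arrays lie above or below all WT arrays, beside 4.49% above and 6.51% below over the table. Of the 10 differences 2 were above 0 (Lep and the brightest Car3 probe set) and 8 were below, with a median of −0.14 beside −0.03 over all probe sets. Of all 45037 probe sets 20416 had a difference above 0 and 24621 below. The exact two-sided permutation p over the 6 arrays, which cannot go below 0.1 here, ran from 0.3 for Retn to 1 for Adipoq. Precision differed between members. The standard error was 0.18 for Cidea and for Lep, 0.23 for Ucp1, 0.68 for the brightest Car3 probe set and 0.83 for Adipoq. Leaving out WT 3 brought 2 probe sets under an unadjusted p of 0.05, Adipoq (0.64) and the brightest Car3 probe set (1.16), each with an adjusted p of 0.849 from limma. In that fit 3.18% of all probe sets were higher and 2.68% lower at the same threshold. Both members were chosen for mention after their values were seen.

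**Figure D2:**
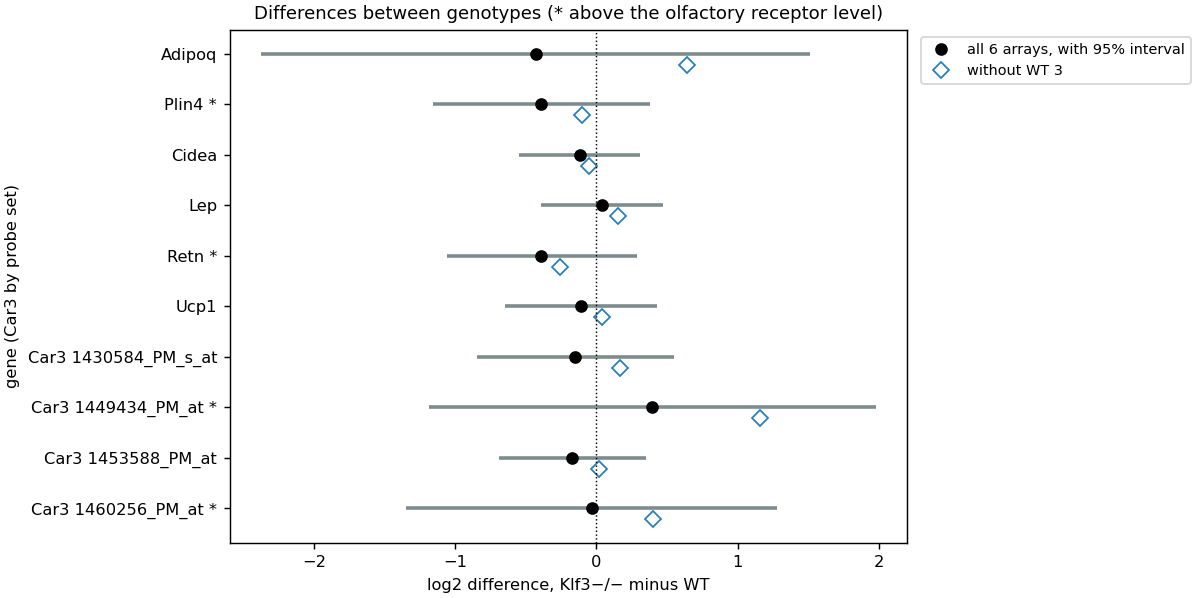
Log2 difference, Klf3-/- minus WT (x axis), of each member probe set (y axis), as black dots with the 95% interval from limma over all 6 arrays, and as blue open diamonds without WT 3. Stars mark a mean above the olfactory receptor level. Every interval crosses 0, and Adipoq moves from −0.43 to 0.64 when WT 3 is left out.

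Most member probe sets read highest on WT 3, while Klf3-/- 3 was high for the 2 brighter Car3 probe sets and lowest for Plin4 and Retn. The lead of WT 3 over the next array was only 0.09 for Lep, 0.12 for Cidea, 0.17 for Retn and 0.19 for Ucp1. WT 3 was the highest array for 9 of the 10 probe sets, all except 1460256_PM_at of Car3, for which Klf3-/- 3 was the highest. WT 3 was the highest for 20.4% of all probe sets and for 21.9% of those below background. This count depended on the normalisation. On the intensities as deposited WT 3 was the highest for 2 of 10, Adipoq and 1430584_PM_s_at of Car3, beside 0.819% of all probe sets, and after median centring for 9. The brightest probe sets of the 7 members, summed on the linear scale, gave 306, 267 and 935 in WT 1 to 3 and 327, 439 and 626 in Klf3-/- 1 to 3. WT 3 was the high array and WT 2 the low one. Car3 made up 42.1% to 75.1% of each sum, and without it the sums were 177, 152 and 355 in WT and 169, 175 and 156 in Klf3-/-. These shares are of intensity and not of transcript amount, since probe sets differ in response. Of the members other than Car3 only Plin4 and Retn lay above background on average, and Adipoq, at 7.10, was the brightest of them on WT 3. Marker lists of other cells did not all move with them. The summed level of 9 endothelial markers was also highest on WT 3, at 6050 in a WT range of 1300 to 6050 and a Klf3-/- range of 1100 to 4180, and 7 of the 9 markers peaked there, 3 of them also as deposited. All 9 lay above background. Pecam1, the brightest of them, gave 10.54, 8.14 and 10.75 in WT and 10.37, 8.64 and 10.38 in Klf3-/-, so its lead on WT 3 was small. Vwf, the clotting factor carrier of endothelial cells, gave 8.73, 8.40 and 10.37 in WT and 8.88, 6.63 and 9.71 in Klf3-/-. Of the 9 endothelial markers 8 read lower in Klf3-/-, with a median difference of −0.60 beside −0.04 over all genes. Gpihbp1 (−1.43, limma adjusted p = 0.901) was the 1 at an unadjusted p under 0.05, beside 2.47% of all genes lower. The 11 measured of 12 macrophage markers, all above background, ranged from 8980 to 16200 in WT and from 12100 to 29000 in Klf3-/- with 0 peaking on WT 3. The 11 measured of 13 stromal and preadipocyte markers, also all above background, ranged from 10300 to 17500 in WT and from 16700 to 27400 in Klf3-/-, with 1 peaking there. The 14 skeletal muscle markers, 5 above background, ranged from 499 to 539 in WT and from 425 to 509 in Klf3-/-. They are listed because muscle also makes Car3. The 8 eosinophil markers, 1 above background, summed to 142 to 179 in WT and 124 to 175 in Klf3-/-. Most genes of the muscle and eosinophil lists read below background, which limits what their sums show. The part of other cell types in the member readings was not tested.

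**Figure D3:**
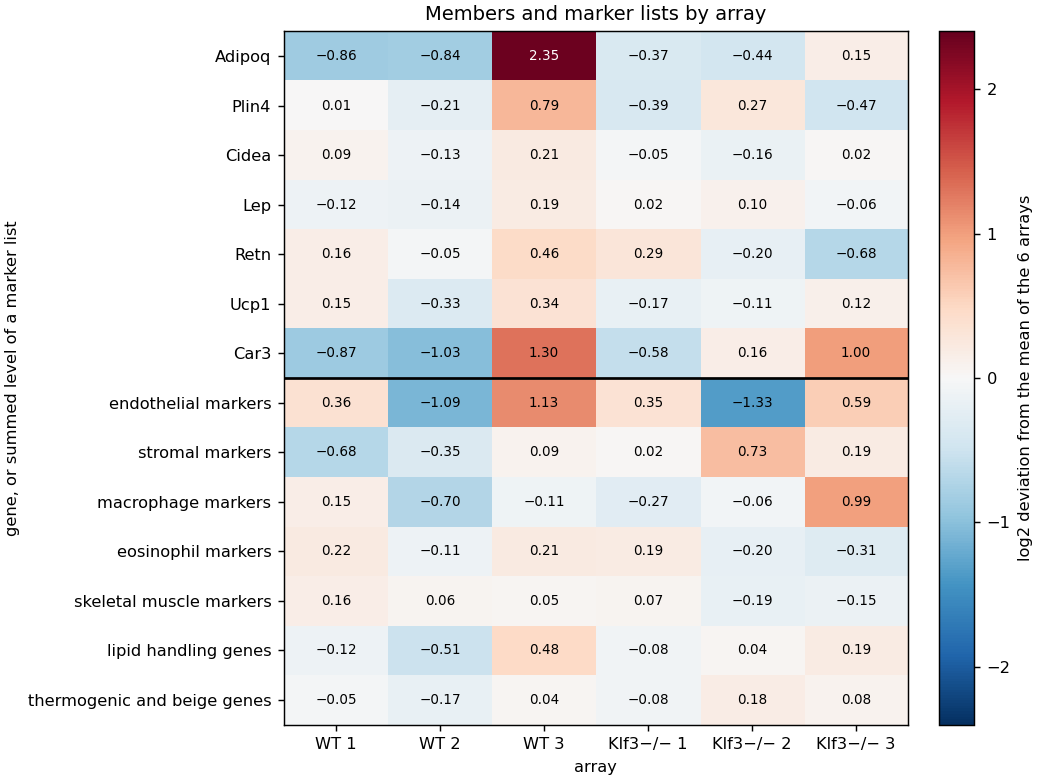
Deviation of each array (x axis) from the mean of the 6 arrays, on the log2 scale, for the brightest probe set of each member (above the line) and for the log2 of the summed linear level of marker and pathway lists (below it), with red for higher and blue for lower. Adipoq deviates by 2.35 and Car3 by 1.30 on WT 3, where the endothelial sum deviates by 1.13 and the muscle sum by 0.05. Of the 14 muscle markers only 5 lay above background, which limits what their sum shows.

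The stromal list is given beside the members because preadipocytes are the precursors of the cells they mark. All 11 stromal genes read higher in Klf3-/-, with a median difference of 0.95 beside −0.04 over all 17097 genes, and 5 had an unadjusted p under 0.05, beside 3.61% of all genes higher and 2.47% lower. Mfap5 gave 7.60, 7.87 and 7.79 in WT and 9.25, 9.82 and 8.63 in Klf3-/-, and Cd34 gave 9.05, 8.47 and 9.23 against 9.92, 10.79 and 10.06. Neither gene's genotypes overlapped, and these were the 2 stromal genes with the smallest limma p. All Klf3-/- arrays lay above all WT arrays in 4 of the 11 stromal genes, beside 828 of all 17097 genes. The 11 macrophage markers also all read higher, with a median difference of 0.22 and 1 at an unadjusted p under 0.05. Their largest differences were those of Lyve1 (2.21) and Cd163 (1.29). The macrophage sum was highest on Klf3-/- 3 (29000), while the stromal sum was highest on Klf3-/- 2 (27400). The part of macrophages in the stromal values was not tested. None of the stromal genes passed the adjusted threshold, the smallest adjusted p being 0.663 from limma. Of the 7 members 5 read lower in Klf3-/- by their brightest probe set. Of all 17097 genes 9442 read lower and 7655 higher. Adipoq, Cidea and Ucp1, which are among the 5, lay below background, and the Adipoq difference was 0.64 without WT 3. The difference between the lists was not tested.

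**Figure D4:**
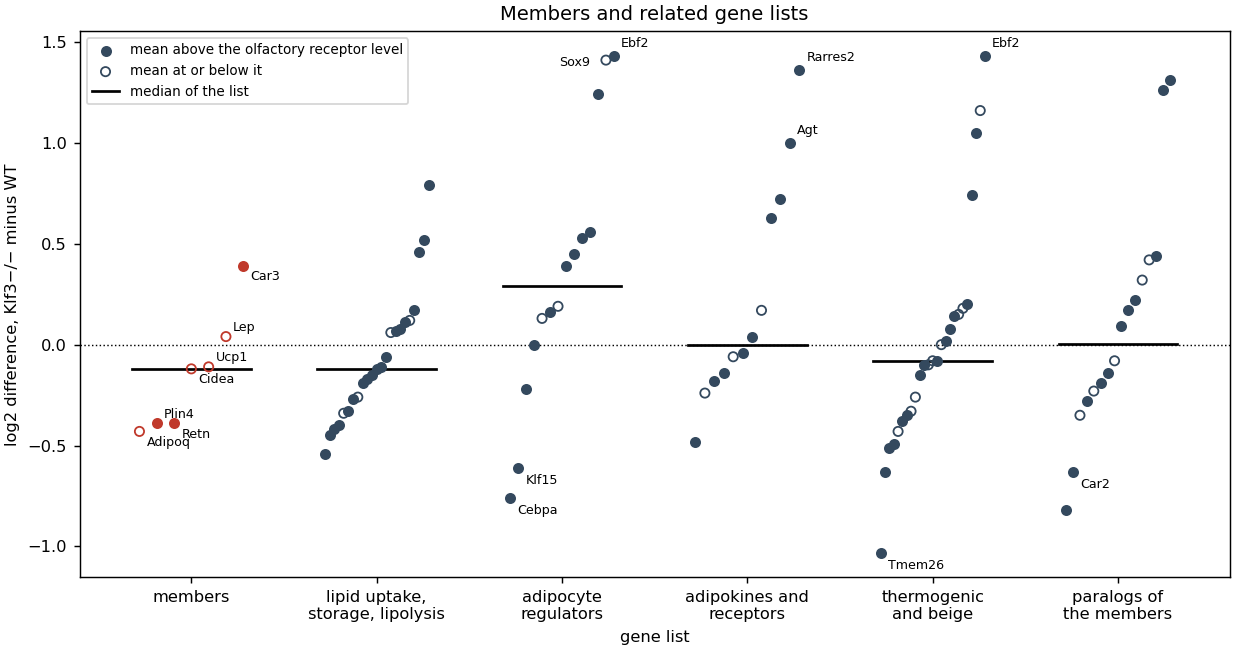
Log2 difference, Klf3-/- minus WT (y axis), of the brightest probe set of each measured member (red) and of the genes of 5 related lists (dark blue), ordered by size within a list (x axis). Filled points lie above the olfactory receptor level, bars are list medians, and names are given for members and for genes with an unadjusted p under 0.05. The lipid list spans −0.54 to 0.79, and the regulator list has the highest median, 0.29.

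Genes that act with the members in lipid storage and release were listed next to them. Of 25 such genes 23 were measured, 19 above background, and the median difference was −0.12, beside −0.04 over all genes. At an unadjusted p under 0.05 there were 0, beside 3.61% of all genes higher and 2.47% lower, and 0 passed the adjusted threshold. In 1 gene, Slc2a4, every Klf3-/- array read below every WT array, and in 0 genes every one read above. Of all 17097 genes 1120 read below in this way and 828 above. Fabp4, the fatty acid carrier of adipocytes that macrophages and endothelium also make, gave 11.71, 11.05 and 12.65 in WT 1 to 3 and 11.67, 11.11 and 12.11 in Klf3-/- 1 to 3. Its high array was WT 3, as for the members, and its difference was −0.17 (limma, adjusted p = 0.981). Lpl, which frees fatty acids from lipoproteins, gave 10.64, 10.22 and 11.07 against 11.04, 12.30 and 10.96, a difference of 0.79 (limma, adjusted p = 0.91). Slc2a4, the insulin-regulated glucose transporter, gave 5.10, 4.83 and 5.32 in WT and 4.73, 4.73 and 4.75 in Klf3-/-. Its mean lay below background, and WT 3, just above its own level of 5.31, was the 1 array that passed. In this list 34.8% of genes peaked on WT 3, beside 20.9% of all genes, while on the values as deposited the shares were 8.7% and 0.93%.

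Regulators of the adipocyte program gave differences in both directions. Of 16 genes 14 were measured, 11 above background. An unadjusted p under 0.05 was reached by 2 genes on the higher side and 2 on the lower side. The shares over all genes were 3.61% and 2.47%. Cebpa, which drives terminal adipocyte differentiation and is also a myeloid factor, gave 9.11, 8.42 and 9.32 in WT and 8.42, 8.03 and 8.10 in Klf3-/- (difference −0.76, limma adjusted p = 0.868). Ebf2, a factor of beige precursors, gave 6.17, 6.66 and 6.89 in WT and 7.31, 9.12 and 7.58 in Klf3-/- without overlap (difference 1.43, limma adjusted p = 0.868). Klf15 (−0.61), a factor that rises in fat cell differentiation, and Sox9 (1.41), a factor of precursors that lay below background on average, completed the count and were chosen for mention after their values were seen. Cebpb and Rxra, the other named regulators, had differences of 0.16 and −0.22. The smallest adjusted p of the list was 0.868 from limma.

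Of 14 other adipokines and adipokine receptors 12 were measured, 9 above background. An unadjusted p under 0.05 was reached by 2 genes on the higher side and 0 on the lower side. The shares over all genes were 3.61% and 2.47%. Rarres2, which encodes the adipokine chemerin and is also made by stromal cells, gave 8.73, 8.56 and 8.81 in WT and 9.76, 10.58 and 9.83 in Klf3-/-. The genotypes did not overlap, and the difference of 1.36 had an adjusted p of 0.663 from limma. Agt, the angiotensin precursor, gave 5.63, 5.53 and 6.16 against 6.53, 7.15 and 6.64, a difference of 1.00 (limma, adjusted p = 0.817). The adiponectin receptors had differences near 0. Adipor1 gave 9.65, 9.63 and 9.65 in WT and 9.66, 9.41 and 9.99 in Klf3-/- (difference 0.04), and Adipor2 differed by −0.18.

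Of 34 thermogenic and beige genes 25 were measured, 16 above background, with a median difference of −0.08. Ebf2 was the 1 gene higher at an unadjusted p under 0.05, beside 3.61% of all genes higher and 2.47% lower. Tmem26, a surface marker of beige cells, was the 1 gene lower, with 7.34, 6.88 and 6.68 in WT and 6.68, 5.55 and 5.59 in Klf3-/- (difference −1.03, limma adjusted p = 0.868). Slc27a1, a fatty acid transporter, and Slc6a8, the creatine transporter, differed by −0.38 and 0.20. The list, which does not hold the members Ucp1 and Cidea, had 0 genes past the adjusted threshold, beside 0% of all probe sets. After normalisation 40% of its genes peaked on WT 3, beside 20.9% of all genes. On the values as deposited the shares were 4% and 0.93%.

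Paralogs showed which family members were read in the RNA of the sorted samples, whichever cells made it. Of 18 listed 16 were measured, 11 above background. An unadjusted p under 0.05 was reached by 1 gene on the lower side and 0 on the higher side. The shares over all genes were 2.47% and 3.61%. Plin2, the perilipin found in most cells, gave 9.91, 10.15 and 10.41 in WT and 9.89, 10.50 and 10.58 in Klf3-/- (difference 0.17). Retnla, the resistin relative of alternatively activated macrophages, gave 9.70, 9.99 and 10.38 against 9.79, 11.50 and 12.54, high on Klf3-/- 2 and 3 and within the WT values on Klf3-/- 1 (difference 1.26, limma adjusted p = 0.91). Car2, a cytosolic carbonic anhydrase, was the gene counted as lower, with 7.32, 6.60 and 6.99 in WT and 6.69, 6.13 and 6.20 in Klf3-/- (difference −0.63, limma adjusted p = 0.901). Car5b, a mitochondrial one, gave 5.38, 4.71 and 7.04 against 6.90, 6.68 and 7.48, so that its WT 3 value was near that of Klf3-/- mice (difference 1.31, limma adjusted p = 0.904).

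The genes whose pattern over the 6 arrays was most like that of the members above background were found by the root mean square difference between centred log2 profiles. The mean profile of Plin4, Retn and the brightest Car3 probe set was −0.23, −0.43 and 0.85 in WT 1 to 3 and −0.22, 0.08 and −0.05 in Klf3-/- 1 to 3. Of 11112 genes compared, Angel1 (0.06), Ccdc17 (0.10), G0s2 (0.12), Prdm9 (0.13) and Trim13 (0.14) lay nearest, each highest on WT 3. G0s2, an inhibitor of adipose triglyceride lipase, gave 5.44, 5.26 and 6.43 in WT and 5.60, 5.76 and 5.40 in Klf3-/-. These genes are the nearest of many and were picked for that closeness. The single members lay between 0.24 (Plin4) and 0.72 (Adipoq) from the mean profile, to which Plin4, Retn and Car3 themselves contribute.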

How the data were processed

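The authors amplified RNA (Affymetrix 3′ IVT Pico Kit), hybridised it to GeneChip HT MG-430PM arrays and processed these in Partek Genomics Suite with RMA, whose steps are not stated in the sources read. The deposited values are linear intensities. Their array medians differed by up to 1.94-fold, so log2 values were quantile-normalised. Genotypes were compared with limma 3.58.1 (R 4.3.3) on genotype alone, with Benjamini-Hochberg adjustment over 45037 probe sets, and the script was tested on simulated data. Figures were drawn with matplotlib 3.10.9. Of the probe sets 28898 had 1 gene symbol in the platform annotation, 551 several and 15588 none. The brightest probe set stood for each of 17097 genes.

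The members and lists were chosen with earlier results of these data known. All member probe sets were named. From each list the 2 brightest genes and the 2 with the smallest p were eligible to be named, with any gene past an adjusted p under 0.05, and so were the 5 genes nearest in profile. Exceptions are Klf3 as the disrupted gene, Klf15 and Sox9, which complete a count, and the defining eosinophil markers Epx, Prg2, Il5ra and Ccr3, named after their values were seen.

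The mice were litter-matched per the labels. Deviations of same-numbered WT and Klf3-/- arrays from their genotype means correlated weakly (0.17, 0.23 and 0.21 for replicates 1, 2 and 3). Values for differently numbered arrays are not given here, so whether the numbers pair the arrays is not known. The main fit left the replicate number out, and the replicate block was an alternative. Other alternatives were the values as deposited, median centring, each array left out in turn, eBayes with trend and robust fitting, one-way and two-way analysis of variance, a filter on dim probe sets, other background levels and the mean of a gene's probe sets. The methods name a two-way ANOVA without its second factor.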

Additional observations from a re-analysis of the deposited data

How the results depend on the processing

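No member probe set passed the adjusted threshold under any alternative. A replicate block, another fit or test, or a filter leaves a member's fitted difference as it was. Of the 57 alternative differences that could move, 48 kept their direction and 9 reversed. On the values as deposited Cidea read 0.02 and Ucp1 0.06, and with median centring Lep read −0.07. Leaving out 1 array gave ranges of −0.97 to 0.64 for Adipoq, −0.02 to 0.15 for Lep, −0.30 to 0.04 for Ucp1 and −0.02 to 1.16 for Car3, whose difference was 0 without Klf3-/- replicate 3. Adipoq and Ucp1 reversed without WT replicate 3, Lep without WT replicate 1 or 2 and Car3 without WT replicate 2. The count of member probe sets at an unadjusted p under 0.05 ran from 0 to 2 when arrays were left out, with 2 only without WT replicate 3, a fit in which 5.86% of all probe sets passed in either direction (4.51% to 5.98% over the 6 fits). The count above background fell from 4 to 2 with the 99th percentile of the olfactory receptor probe sets as the level, or where a probe set had to exceed its array's level on all 6 arrays, and it was 5 with the 90th percentile. In an alternative added after the data were seen, the count of member probe sets highest on WT replicate 3 was 2 as deposited in place of 9. With the replicate block 0 member probe sets were called, so the block changed no member call. The cause of these shifts was not tested. Signal over background limits what can be said of Cidea, Lep and Ucp1.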
